A study of Mus musculus with 16 samples.

Results

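The clustered histone genes were taken as every symbol of the count tables that started with Hist1h, Hist2h, Hist3h or Hist4h, or that read H1f, H2ac, H2bc, H3c or H4c followed by a number. The rule found 72 of 55367 gene symbols, of which 11 were H1, 20 H2A, 17 H2B, 12 H3 and 12 H4 genes. In the GENCODE M21 annotation of mm10, the build of the count tables, 56 members lay in the large histone cluster of chromosome 13 and 10 in the cluster of chromosome 3. One of the 56, the pseudogene H2ac5-ps, had no match in GENCODE M21 and was placed by the RefSeq table. The other 6 lay outside both clusters, and they included the linker histone genes H1f0 on chromosome 15 and H1f10 on chromosome 6, which the rule takes in by name. Of the 72 members, 42 passed the filter on low counts and were tested, 24 had a count in at least 1 library but did not pass, and 6 (H2ac18, H2ac19, H2bc18, H1f7, H3c14 and H3c13) had no count in any library.

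Histone H2A, H2B, H3 and H4 form the octamer around which DNA is wrapped, and the linker histone H1 binds where DNA enters and leaves it. Most genes in the clusters are replication-dependent: the factor NPAT switches them on as cells enter S phase, and their messages end in a stem-loop instead of a poly(A) tail. The stem-loop is bound by SLBP, the U7 snRNP cuts the message behind it, and the message is destroyed when DNA synthesis stops. Some of these genes can also give spliced or longer messages with a poly(A) tail, which is known for cells that leave the cycle, while H1f0 and H1f10 are replication-independent and give messages with a poly(A) tail.

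The cells were mIMCD3, an epithelial line that was derived from collecting ducts of the mouse inner medulla, the part of the kidney that meets the highest salt and urea concentrations in the body. Wild-type (WT) cells received DMSO or 10 µM sulforaphane (SFN), an isothiocyanate that activates the transcription factor Nrf2, for 5 h, and were then kept in isosmotic medium or put under hyperosmotic stress for 1 h or 6 h. Nrf2-/- cells, made with CRISPR/Cas9, were sequenced with SFN only, isosmotic and after 1 h of stress, so no DMSO-treated Nrf2-/- group is compared here, and whether these cells came from 1 clone is not given in the sources used here. Each of the 8 groups had 2 libraries, which the study's methods call biological replicates and the labels tie to no named cultures, so the p-values measure the spread between these libraries.

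Nfe2l2, the gene of Nrf2, lay between 64.0 and 149 CPM (the usual unit for counts relative to the library's total, here scaled by TMM) in the 12 WT libraries and between 11 and 11.6 CPM in the 4 Nrf2-/- libraries. Libraries held between 34484296 and 50774875 counts. The biological coefficient of variation between the 2 libraries of a group was 0.0393 to 0.128 in 7 groups and 0.348 in Nrf2-/- cells after 1 h of stress, whose libraries stood apart from each other. Of the 15 markers of collecting duct epithelium, 14 were tested, and the keratin genes Krt8 and Krt18 were high in all libraries (Krt8 at 650 to 1109 CPM), while Aqp2, the vasopressin-regulated water channel, did not exceed 0.323 CPM and Avpr2 did not exceed 0.283 CPM. Of the 14, 7 were higher and 2 lower at 6 h with DMSO, when 23.9% of all genes were higher and 22.0% lower. With SFN 9 were higher and 0 lower at 6 h, when 24.7% were higher and 22.9% lower. In isosmotic Nrf2-/- cells 3 were higher and 5 lower, when 15.7% of all genes were higher and 18.4% lower. SFN in isosmotic WT cells gave 0 higher and 5 lower, when 2.84% of all genes differed. Pax2 lay at 119 to 1146 CPM in WT and 23.6 to 27.5 CPM in Nrf2-/- libraries. The cadherin gene Cdh16 lay at 165 to 463 CPM against 14.1 to 25.5 CPM, while Krt7 lay at 158 to 380 CPM against 833 to 1308 CPM. The part of these differences in the histone results was not tested. The summed level of 13 markers of other kidney cells was 8.29 to 12.9 CPM in the WT groups without stress or at 1 h, 26.6 to 29.7 CPM at 6 h and 2.66 to 3.91 CPM in Nrf2-/- cells, and Umod was at 0 in all libraries.

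The 16-base stem-loop was sought in the annotated 3′ UTRs as a stem of 6 base pairs that opens with GG and a loop of 4 bases that opens with TT. It was present in 40 of the 53 members with a 3′ UTR of at least 16 bases, against 0.266% of all 51567 annotated 3′ UTRs. The members shared 6 versions of it, and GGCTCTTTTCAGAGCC was the most common, in 23 members. The following stretches, read from GENCODE M21 transcripts with the stem-loop in capitals, belong to members whose values differed between groups, and they show 3 of these versions.
H1f2: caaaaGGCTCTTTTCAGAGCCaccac
H2ac4: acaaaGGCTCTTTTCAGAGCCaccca
H3c3: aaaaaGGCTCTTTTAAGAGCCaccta
H2bc12: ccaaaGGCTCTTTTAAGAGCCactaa
H4c9: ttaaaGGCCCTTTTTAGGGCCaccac

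H1f2 and H2ac4 carried the most common version, H3c3 and H2bc12 shared another that differs in the loop, and H4c9 carried one that differs in stem and loop. The annotated message ended 11 bases behind the stem-loop in H2ac4, 30 in H2bc12 and 74 in H3c3, but 330 bases behind it in H4c9 and 840 bases behind it in H1f2. H2bc4, whose annotated message has 2 exons, H2bc21, H1f0 and H1f10 had a 3′ UTR without a match to this pattern, of 742, 2192, 1198 and 369 bases.

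The RefSeq table for GRCm38.p6 held 56 promoters of members, each of 300 bases (250 before to 50 after the start). Among them, H2bc6 had promoters at chr13:23585921-23586220 and chr13:23621045-23621344. The CCAAT box, counted on both strands, was present in 83.9% of the 56 promoters, against 37.4% of all 32851 promoters of the table. All promoters of H2A, H2B and H3 members in the table held it, and 33.3% of those of H4 members did. TATAAA was present in 53.6% against 13.6%, and the octamer ATTTGCAT, the binding sequence of the POU factor Oct1, in 23.2% against 1.74%, in H2A and H2B members only. TGACNNNGC, the core of the antioxidant response element that Nrf2 binds with small Maf proteins, was present in 5.36% of the members' promoters against 12.4% of all. The promoters of the 3 stem-loop members with the clearest differences between genotypes are given with CCAAT and TATAAA in capitals, H1f2 at chr13:23738557-23738856 on the plus strand, H4c9 at chr13:22041313-22041612 and H3c3 at chr13:23745472-23745771, both on the minus strand.
H1f2 promoter: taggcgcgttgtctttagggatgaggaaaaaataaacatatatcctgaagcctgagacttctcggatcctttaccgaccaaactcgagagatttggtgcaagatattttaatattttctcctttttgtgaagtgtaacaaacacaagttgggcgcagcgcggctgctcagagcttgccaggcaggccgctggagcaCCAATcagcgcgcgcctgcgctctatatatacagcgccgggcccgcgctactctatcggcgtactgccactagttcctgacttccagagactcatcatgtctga
H4c9 promoter: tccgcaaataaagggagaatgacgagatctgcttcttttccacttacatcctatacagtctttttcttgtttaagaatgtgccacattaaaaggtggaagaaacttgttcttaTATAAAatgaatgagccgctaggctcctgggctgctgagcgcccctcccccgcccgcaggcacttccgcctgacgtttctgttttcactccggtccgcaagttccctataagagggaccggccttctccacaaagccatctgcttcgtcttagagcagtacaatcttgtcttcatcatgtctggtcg
H3c3 promoter: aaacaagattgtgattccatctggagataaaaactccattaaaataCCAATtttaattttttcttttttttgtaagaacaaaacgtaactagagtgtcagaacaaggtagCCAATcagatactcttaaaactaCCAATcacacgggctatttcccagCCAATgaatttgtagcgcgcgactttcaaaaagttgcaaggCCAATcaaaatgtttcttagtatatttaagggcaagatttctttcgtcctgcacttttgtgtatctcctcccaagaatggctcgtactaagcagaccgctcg

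H1f2 had 1 CCAAT box, H4c9 had none and 1 TATAAA, and H3c3 had 5 CCAAT boxes.

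Histone messages took 0.0198% to 0.0403% of the counts of a library. H1f0 alone held 75.0% of the members' summed CPM, and among the 66 members in the clusters the 4 highest, H1f2, H2bc4, H2bc21 and H4c9, held 75.4%. Of the 42 tested members, 36 had a mean under 2 CPM, with a median of 12.6 counts per library. Per kilobase of exon annotated in GENCODE M21, the order was H1f0 (107 CPM per kb), H1f2 (16.5), H2bc4 (10.9), H1f10 (4.94), H4c9 (4.76), H2bc21 (3.32) and H3c3 (2.66). Many symbols of the count tables differ from those of GENCODE M21, where H1f2 is Hist1h1c. The exon and 3′ UTR lengths used here and below may thus differ from those the reads were counted over. At such counts only large differences could be detected, and for a member at 0 the limit of 3 counts corresponds to 0.0556 to 0.0935 CPM.

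Counts went with the length of the annotated 3′ UTR, and the level per kilobase differed less. Members with an annotated 3′ UTR of 300 bases or more had a median of 16.1 counts per library, and 20 of 23 were tested. The median was 5.88 counts for the 32 members with a shorter 3′ UTR, of which 16 were tested, and 2.97 counts for the 16 members with none, of which 6 were tested. The members that ranked highest, H1f0, H1f2, H2bc4, H2bc21, H1f10 and H4c9, all had more than 300 annotated bases. Per kilobase of annotated exon the medians were 0.312, 0.292 and 0.182 CPM per kb in the same order. The part of the length of the message in the counts was not tested. Among stem-loop members the median was 0.300 CPM per kb with 300 or more bases behind the loop and 0.342 CPM per kb with fewer. Over all members with the stem-loop it was 0.302 CPM per kb, against 0.443 CPM per kb for the 13 with a 3′ UTR but no match. Sequence shared between members went with the counts too: in the 16 members of which more than 80% of 50-base windows also occur in another member, the median was 2.81 counts and 5 were tested, against 11.1 counts and 37 tested of the other 55. Reads that match several members may not have been counted, and their part in the low counts was not tested. Among 15 RNAs that carry no poly(A) tail, such as Rn7sk and Rmrp, the sum was 0.792 to 3.96 CPM, and 2 passed the filter. The top of this range came from stressed Nrf2-/- cells (2.68 to 3.96 CPM), and all other libraries had at most 1.88 CPM. The selection of RNA for the libraries is not given in the sources used here, and its part in the low histone counts was not tested.

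**Figure D1:**
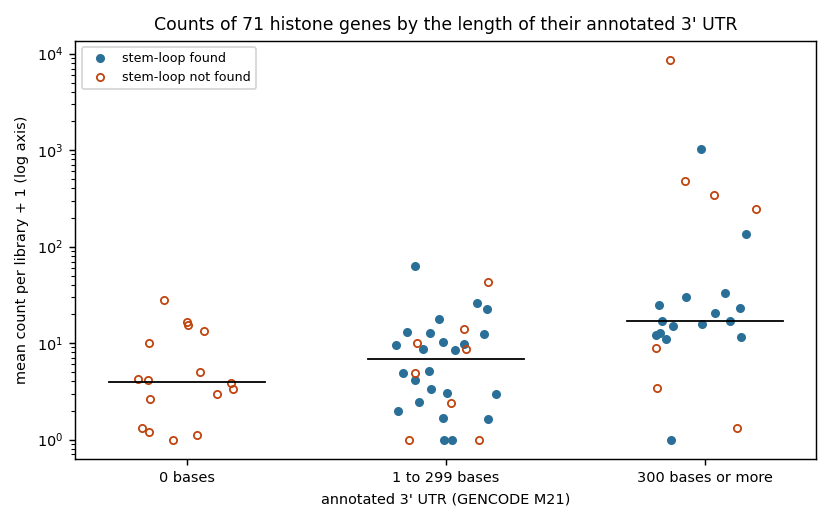
Mean count per library plus 1 (log axis) of 71 histone genes, grouped by the length of their annotated 3′ UTR, with filled points where the stem-loop was found, open points where it was not and a line at the group median. The medians were 2.97, 5.88 and 16.1 counts before 1 was added, and the genes above 100 counts all had 300 or more annotated bases.

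Differences between groups were tested with edgeR's quasi-likelihood test, with Benjamini-Hochberg adjustment over the 19509 genes tested and a threshold of 0.05 on the adjusted p, and fold changes are given on the log2 scale with their standard error.

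No histone gene was called for SFN against DMSO in WT cells, and the shares of all genes called were small too. In isosmotic cells 0 of 42 members were called, with 2 at an unadjusted p under 0.05, while 2.84% of all genes were called. At 1 h of stress 0 of 42 were called (0 unadjusted, 0.0923% of all genes), and at 6 h 0 of 42 (3 unadjusted, 0.041% of all genes). The median log2 fold changes of the 42 were 0.02, 0.01 and 0.13, while the median of all genes was 0.00 in each comparison. For the best-measured cluster gene, H1f2, the difference between SFN and DMSO was -0.24 ± 0.13 in isosmotic cells. Its 95% interval by the normal approximation was -0.50 to 0.01. With so few libraries this interval is too narrow, so it sets no firm limit on a fall. H2bc21 lay at 8.08 and 8.56 CPM with DMSO and at 12.1 and 10.7 CPM with SFN, without overlap, but its log2 fold change of 0.45 ± 0.20 did not pass the test (adjusted p = 0.31). In a fit of the 12 WT libraries alone it did (0.47, adjusted p = 0.0407). At 1 h of stress H1f2 was called higher with SFN in a fit of only the libraries compared (0.25, adjusted p = 0.0446).

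After 1 h of hyperosmotic stress, 1 histone gene differed in DMSO-treated cells. H1f2, the most abundant linker histone of the clusters, lay at 35.8 and 43.1 CPM in isosmotic cells and at 27.1 and 29.5 CPM after 1 h. The stressed libraries lay below both controls, and the log2 fold change was -0.48 ± 0.13 (adjusted p = 0.029), which made 1 member lower of 42, with 4.11% of all genes lower, and 0 higher, with 7.1% of all genes higher. Without DMSO 1 h replicate 1, DMSO 1 h replicate 2 or DMSO isosmotic replicate 2 it was not called (adjusted p up to 0.308). In SFN-treated cells the same gene lay at 30.7 and 35.9 CPM before and at 32.1 and 35.4 CPM after 1 h of stress, overlapping, and 0 of 42 members were called (1 unadjusted), with 9.52% of all genes called. The difference between both responses was 0.50 ± 0.19 for H1f2 and did not pass the test (adjusted p = 0.483). None of the 42 members passed the test of this difference (2 unadjusted), with 0.559% of all genes called. H2bc21, which was also higher at 1 h with DMSO (13.6 and 10.8 CPM), was called neither there (0.55 ± 0.21, adjusted p = 0.108) nor with SFN (0.14 ± 0.20), but in DMSO-treated cells it was called (0.57) in a fit of the 12 WT libraries and (0.54 to 0.55) without either library of stressed Nrf2-/- cells. The members' median log2 fold changes were -0.14 with DMSO and -0.05 with SFN.

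After 6 h the linker histones H1f0 and H1f10 were lower and H2bc4 was higher, with and without SFN. H1f0, which accumulates in cells that stop dividing, lay at 289 and 293 CPM in isosmotic DMSO-treated cells and at 149 and 164 CPM at 6 h, and at 274 and 226 CPM against 126 and 133 CPM with SFN. All 6 h libraries lay below all isosmotic WT libraries, with log2 fold changes of -0.89 ± 0.12 (adjusted p = 3.77e-05) and -0.95 ± 0.12 (adjusted p = 2.03e-05). H1f10 lay at 10.3 and 11.7 CPM before and at 4.75 and 5.59 CPM at 6 h with DMSO, and at 8.82 and 8.67 CPM against 5.20 and 5.30 CPM with SFN. The groups did not overlap, and the log2 fold changes were -1.09 ± 0.25 (adjusted p = 0.00302) and -0.74 ± 0.25 (adjusted p = 0.0272). With SFN the call of H1f10 was lost without any 1 of the 4 libraries compared (adjusted p up to 0.11).

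H2bc4, which encodes the core histone H2B, lay at 13.3 and 13.2 CPM in isosmotic DMSO-treated cells and at 19.9 and 22.5 CPM at 6 h. With SFN it lay at 10.2 and 11.7 CPM and rose to 25.1 and 22.5 CPM. Its log2 fold changes were 0.68 ± 0.16 (adjusted p = 0.00283) and 1.12 ± 0.16 (adjusted p = 5.23e-05), and the test of their difference, 0.44 ± 0.22, gave an adjusted p of 0.628. H2bc21, another H2B gene, with a 3′ UTR of 2192 bases, lay at 6.34 and 6.23 CPM at 6 h with SFN, below its 12.1 and 10.7 CPM before, and fell by 0.85 ± 0.21 (adjusted p = 0.00387). With DMSO, where its isosmotic level was lower, the difference was -0.31 ± 0.21 (adjusted p = 0.248).

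In all, 6 h of stress gave 1 member higher and 3 lower of 42 with DMSO, when 23.9% of all genes were higher and 22.0% lower, and 3 higher and 3 lower with SFN, when 24.7% were higher and 22.9% lower. H1f8, the linker histone gene known from oocytes, did not pass the filter on low counts. It had 0 and 0 counts in isosmotic DMSO-treated cells and 15 and 6 at 6 h, and was called higher with DESeq2, without the filter and in several leave-one-out fits. With SFN H1f8 had 0 and 0 counts before and 2 and 3 at 6 h. Hist1h4m, which did not pass the filter either, had 1 and 2 counts before and 27 and 9 at 6 h with SFN. It was called higher with DESeq2 and without the filter. The 9 called members given below include Hist1h4m, so they are not all among the 42. The third lower gene with DMSO was H1f2 (31.7 and 27.9 CPM at 6 h, -0.41 ± 0.13, adjusted p = 0.0203), which was not called with size factors by relative log expression, with DESeq2, or without DMSO 6 h replicate 2 or DMSO isosmotic replicate 2. The further higher genes with SFN were H2ac4 and H3c2, neighbours on chromosome 13 with 668 bases between them. H2ac4 had 5 and 2 counts before and 34 and 12 at 6 h (adjusted p = 0.0353), and H3c2 had 0 and 7 counts before and 20 and 21 at 6 h (adjusted p = 0.0471). Leaving out SFN 6 h replicate 1 ended both calls and left 3 called members of 6. H3c2 was called in 11 of 23 alternative analyses, and H2ac4 was also lost without either SFN isosmotic library. The members' median was 0.19 with DMSO (all genes 0.05) and 0.41 with SFN (all genes 0.09), and with DMSO it lay between -0.16 without DMSO 6 h replicate 1 and 0.48 without DMSO isosmotic replicate 2. With SFN it lay between 0.084 without SFN isosmotic replicate 2 and 0.63 without SFN isosmotic replicate 1, and the count of called members between 3 without SFN 6 h replicate 1 and 9 without either stressed Nrf2-/- library. None of the 42 members passed the test of the difference between both responses at 6 h (1 unadjusted), with 0.759% of all genes called.

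Between 1 h and 6 h of stress in DMSO-treated cells, 2 members were higher and 3 lower of 42, when 20.4% of all genes were higher and 22.0% lower. H2bc4 rose by 0.90 ± 0.16 (adjusted p = 3.48e-04), from 10.2 and 12.5 CPM. H3c3, a core histone H3 gene that holds the stem-loop, lay at 0.905 and 0.742 CPM at 1 h and at 1.30 and 1.73 CPM at 6 h (0.87 ± 0.32, adjusted p = 0.0424), but this call was kept in only 6 of 23 alternative analyses and was lost without any 1 of the 4 libraries compared. H2bc21 (-0.86 ± 0.21, adjusted p = 0.00385), H1f10 (-0.79 ± 0.25, adjusted p = 0.0217) and H1f0 (-0.74 ± 0.12, adjusted p = 2.04e-04) were lower. Of these, H1f10 was lost without any 1 of the 4 libraries compared and H2bc21 without DMSO 1 h replicate 1 or DMSO 6 h replicate 1. The count of called members fell from 5 to 2 without DMSO 1 h replicate 1 or DMSO 6 h replicate 1 and to 3 without DMSO 1 h replicate 2. The members' median was 0.45, when that of all genes was near 0, and 0.08 without DMSO 6 h replicate 1. This comparison shares the 6 h libraries with that against isosmotic cells.

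**Figure D2:**
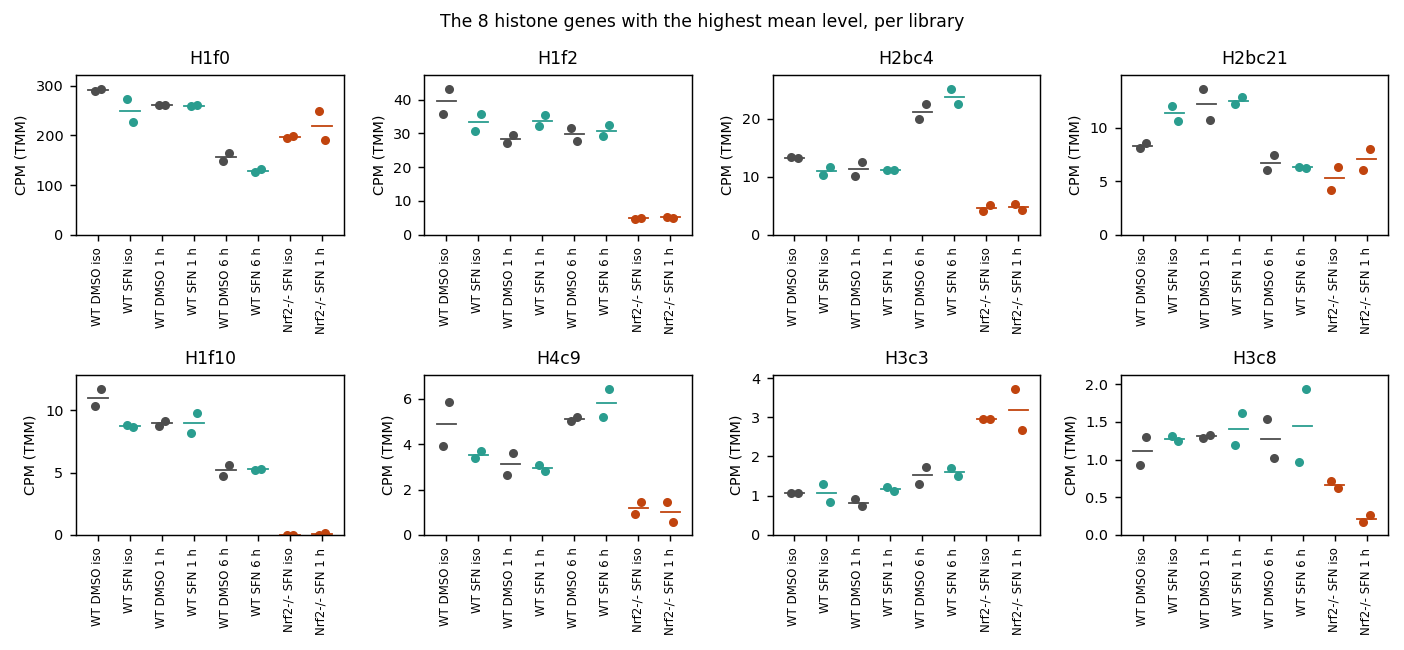
Level in CPM of the 8 histone genes with the highest mean, with 1 point per library and a line at the mean of the 2 libraries of each group; grey is WT with DMSO, green WT with SFN and orange Nrf2-/- with SFN. At 6 h H1f0 and H1f10 lay below and H2bc4 above their levels at 0 h and 1 h in WT cells, and in Nrf2-/- cells H1f2, H2bc4, H1f10, H4c9 and H3c8 lay below and H3c3 above every WT library.

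Nrf2-/- cells differed from WT cells, both with SFN, in single histone genes and in both directions. The design has Nrf2-/- cells with SFN only and 1 Nrf2-/- line, so the loss of Nrf2 and other differences between the lines cannot be told apart. In a bulk sample, a smaller share of cells in S phase and less histone RNA per cell cannot be told apart either.

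H1f2 lay at 4.64 and 5.02 CPM in isosmotic Nrf2-/- cells and at 30.7 and 35.9 CPM in WT cells, and at 5.21 and 5.08 CPM against 32.1 and 35.4 CPM after 1 h of stress. All 4 Nrf2-/- libraries lay below all 12 WT libraries, with log2 fold changes of -2.79 ± 0.15 (adjusted p = 2.29e-09) and -2.71 ± 0.15 (adjusted p = 3.62e-09), which are 6.90-fold and 6.56-fold lower. H1f10, on chromosome 6, had 0 and 0 counts in isosmotic Nrf2-/- cells and 0 and 5 after stress, against 164 to 527 counts in the WT libraries. Its isosmotic level was at least 105-fold lower than that of WT cells, with 3 counts per library taken as the floor (adjusted p = 1.72e-08). H1f0, by contrast, lay at 196 and 198 CPM against 274 and 226 CPM, and its difference of -0.34 ± 0.12 (adjusted p = 0.0417) was kept in 7 of 22 alternative analyses and was lost with size factors by relative log expression and without Nrf2-/- isosmotic replicate 1, Nrf2-/- isosmotic replicate 2 or SFN isosmotic replicate 1 (adjusted p up to 0.359).

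Of the H2B genes, H2bc4 lay at 4.12 and 5.13 CPM in isosmotic Nrf2-/- cells, under all WT libraries, and was lower by both comparisons (-1.25 ± 0.17, adjusted p = 4.18e-05, and -1.21 ± 0.17, adjusted p = 6.61e-05). H2bc21 lay at 4.18 and 6.34 CPM against 12.1 and 10.7 CPM (-1.11 ± 0.21, adjusted p = 8.67e-04), and at 6.06 and 8.02 CPM against 12.2 and 12.8 CPM after stress (-0.83 ± 0.21, adjusted p = 0.00692). The histone H4 gene H4c9 lay at 0.939 and 1.45 CPM against 3.41 and 3.69 CPM (-1.57 ± 0.36, adjusted p = 0.00336), and at 1.47 and 0.577 CPM against 3.08 and 2.80 CPM after stress (-1.51 ± 0.37, adjusted p = 0.00564). Neither comparison of H4c9 had overlapping groups.

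H3c3 went the other way. It lay at 2.96 CPM in both libraries of isosmotic Nrf2-/- cells against 1.29 and 0.834 CPM in WT cells (1.49 ± 0.31, adjusted p = 0.00169), and at 3.71 and 2.68 CPM against 1.23 and 1.12 CPM after stress (1.44 ± 0.31, adjusted p = 0.00239). Every Nrf2-/- library lay above every WT library. H3c8, another H3 gene, lay at 0.711 and 0.618 CPM against 1.31 and 1.24 CPM in isosmotic cells (-0.94 ± 0.41, adjusted p = 0.0924). After stress it lay at 0.17 and 0.26 CPM against 1.20 and 1.62 CPM, where it was called (-2.70 ± 0.47, adjusted p = 4.77e-04). This call rested on 6 and 9 counts in Nrf2-/- against 46 and 65 in WT libraries. Thus of 2 H3 genes of the same cluster 1 was higher and 1 lower in stressed Nrf2-/- cells.

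The remaining calls rested on few counts as well. In isosmotic cells H3c10 had 24 and 22 counts in Nrf2-/- against 6 and 5 in WT libraries (adjusted p = 0.0231) and H2bc3 had 1 and 0 against 13 and 8 (adjusted p = 0.0296). After stress H2bc12 had 25 and 23 counts against 8 and 2 (adjusted p = 0.0284), and Hist1h2al, annotated as a pseudogene outside the clusters, had 0 and 0 against 10 and 16, at least 3.85-fold lower (adjusted p = 0.0191). H3c10 was lost without any 1 of the 4 libraries compared, H2bc3 without Nrf2-/- isosmotic replicate 1 or replicate 2 or SFN isosmotic replicate 1, H2bc12 without either stressed Nrf2-/- library or SFN 1 h replicate 2, and Hist1h2al without SFN 1 h replicate 2. H2bc12 shares 74.2% of its 50-base windows with other members, H3c10 93.9% and Hist1h2al 67.6%, against 47.0% for H3c3 and 54.1% for H3c8. The part of shared reads in these results was not tested.

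In isosmotic cells 2 members were higher and 7 lower of 42, when 15.7% of all genes were higher and 18.4% lower. After 1 h of stress 2 were higher and 7 lower, when 15.3% were higher and 16.2% lower. The median of the 42 was -0.35 in isosmotic cells and -0.04 after stress, when that of all genes was near 0 and -0.02, and in isosmotic cells it was -0.66 without Nrf2-/- isosmotic replicate 1, while after stress it lay between -0.27 without SFN 1 h replicate 2 and 0.30 without SFN 1 h replicate 1. In a fit of the 4 stressed libraries alone, 4 members were called after stress (0 higher, 4 lower). Among the members no longer called were H2bc12, H2bc21, H3c3 and H4c9. Rn7sk, an RNA without a poly(A) tail, lay at 2.80 and 2.39 CPM in stressed Nrf2-/- cells and at 0.171 and 0.269 CPM in isosmotic ones (3.54 ± 0.87, adjusted p = 0.0234). Its part in the results after stress was not tested. The 1 h response in Nrf2-/- cells called 0 of 42 members (3 unadjusted), with 7.17% of all genes called, and the test of its difference from the response of SFN-treated WT cells called 0 (3 unadjusted), with 0.123% of all genes called. Without Nrf2-/- 1 h replicate 1, the log2 fold changes of the 1 h response were 5.52 for H1f10, 0.60 for H2bc21, 4.67 for H2bc3 and -7.30 for H2bc9. In the same fit, the difference of this response from that of WT cells was 5.49 for H1f10, 5.90 for H2bc3 and -7.18 for H2bc9. This fit leaves 1 stressed Nrf2-/- library. H1f10 had 0 and 0 counts in isosmotic Nrf2-/- cells and 5 in that library. H2bc3 had 1 and 0 against 15, and H2bc9 had 22 and 14 against 0. With counts at or near 0 on 1 side, the fitted values of these genes are no measured folds. The library left out had 0, 9 and 10 counts. Without Nrf2-/- 1 h replicate 2, the log2 fold changes of the 1 h response were 0.34 for H1f0 and -1.95 for H3c8.

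**Figure D3:**
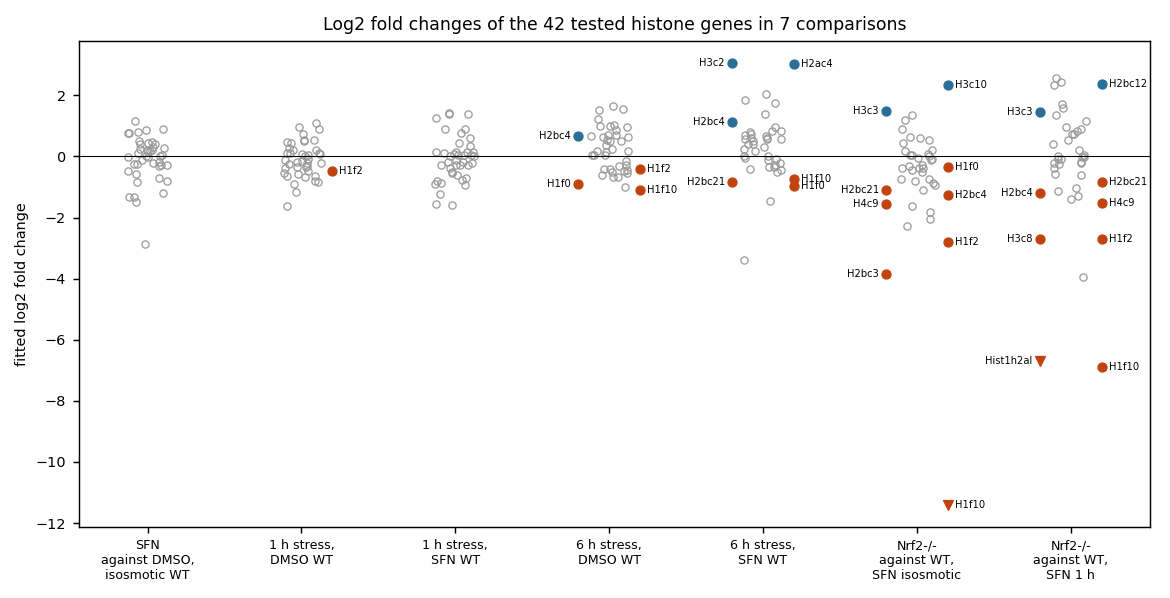
Fitted log2 fold change of the 42 tested histone genes in 7 comparisons, with filled and named points where the adjusted p was under 0.05 (blue higher, orange lower) and open grey points elsewhere; triangles mark called genes with no count in the Nrf2-/- group, whose fitted value is no bound. Called genes were 0, 1, 0, 4, 6, 9 and 9 from left to right.

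Positions are given for the members that differed most, and the pairs below were picked after their values were seen, with no test of position. H1f2 (chr13:23738808-23740367, plus strand, 1 exon) and H3c3 (chr13:23744973-23745602, minus strand, 1 exon) have 4605 bases between them and differed in opposite directions. H4c9 (chr13:22040636-22041362, minus strand, 1 exon) and H2bc12, which was higher after stress, are 4290 bases apart. H1f10 lies at chr6:87980421-87981637 on the minus strand with 1 exon, and H2bc4 at chr13:23684199-23692908 on the plus strand with 2 exons. Hfe, a gene of iron uptake that lies at chr13:23702034-23710854 inside the cluster between H2bc4 and H1f2, was lower as well, at 0.0853 and 0.484 CPM in isosmotic Nrf2-/- cells against 8.07 and 6.99 CPM in WT cells (-4.69 ± 0.42, adjusted p = 6.72e-07). H4c3 (chr13:23697635-23698454), which lies between H2bc4 and Hfe, had 6 and 6 counts in isosmotic Nrf2-/- cells against 21 and 1 in WT cells. After stress it had 33 and 2 counts against 4 and 3. With all 16 libraries and the filter, H4c3 was called in neither comparison, and without the filter it was called higher after stress. Hfe and H4c3 were chosen after their values were seen.

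Summed over the 66 members in the clusters, WT libraries held 69.2 to 88.4 CPM and Nrf2-/- libraries 30.6 to 37.8 CPM, without overlap. H1 members gave 29.2 to 45.3 CPM in WT and 6.34 to 7.44 CPM in Nrf2-/- libraries, and H2B members 24.7 to 35.5 CPM against 11.4 to 15.8 CPM. H3 members gave 4.38 to 6.98 CPM in WT and 5.51 to 7.17 CPM in Nrf2-/- libraries, which overlapped, as did H2A members (1.15 to 2.56 CPM against 1.48 to 2.35 CPM) and H4 members (5.43 to 12.2 CPM against 2.62 to 6.26 CPM). Without the 4 highest members the sums were 13.1 to 22.6 CPM in WT and 13.6 to 19.7 CPM in Nrf2-/- libraries, and these ranges overlapped. Within WT cells, H4 members summed to 8.82 ± 0.55 CPM with DMSO and 11.5 ± 1.02 CPM with SFN at 6 h (SD, n = 2), against 7.83 ± 1.94 and 6.28 ± 0.63 CPM before stress, and the sums were not tested.

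**Figure D4:**
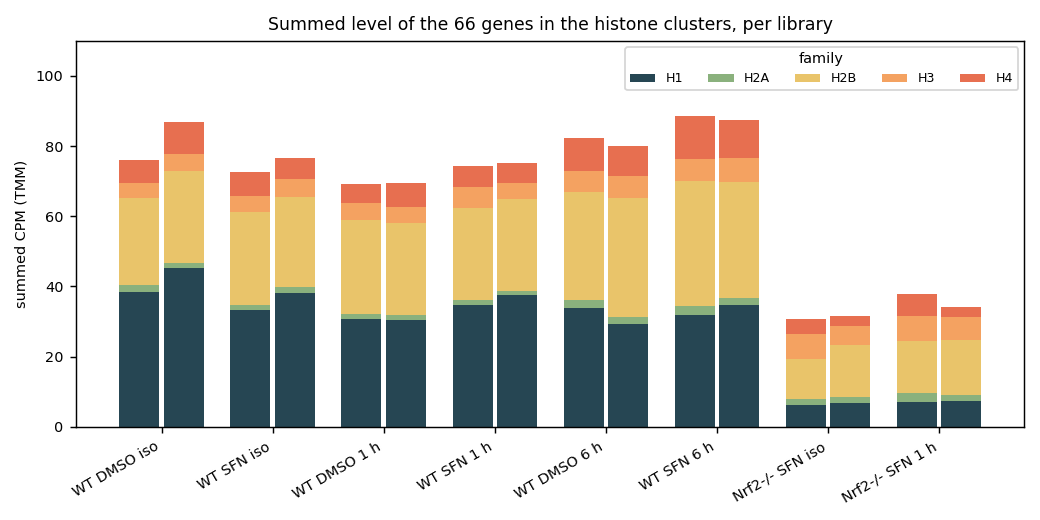
Summed CPM of the 66 genes in the histone clusters for each library (replicates 1 and 2 side by side), stacked by family. The 12 WT libraries reach 69.2 to 88.4 CPM and the 4 Nrf2-/- libraries 30.6 to 37.8 CPM, and the H1 and H2B segments are the ones that are shorter without overlap.

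Slbp, whose product binds the stem-loop, moved in both conditions. It lay at 116 and 120 CPM in isosmotic DMSO-treated cells and at 202 and 216 CPM at 6 h, where it was higher (0.82 ± 0.10, adjusted p = 1.22e-05; with SFN 0.90 ± 0.10, adjusted p = 5.02e-06). In Nrf2-/- cells it lay at 52.6 and 61.8 CPM against 109 and 121 CPM in isosmotic WT cells (-1.01 ± 0.10, adjusted p = 2.26e-06) and at 49.8 and 54.9 CPM against 101 and 98.7 CPM after stress (-0.93 ± 0.10, adjusted p = 5.93e-06). Every Nrf2-/- library lay below every WT library. Npat, the activator of histone gene transcription, rose by 0.87 ± 0.22 at 6 h with DMSO (adjusted p = 0.00505), from 51 and 47.5 CPM to 92.6 and 88.1 CPM, and Casp8ap2 (FLASH), which joins it at histone loci and takes part in 3′ end cutting, by 1.06 ± 0.17 (adjusted p = 1.17e-04). Neither was called between genotypes (Npat 0.30 ± 0.22, adjusted p = 0.323, and Casp8ap2 0.43 ± 0.16, adjusted p = 0.0537, in isosmotic cells).

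Of the 19 genes listed for histone gene transcription and mRNA processing, all were tested, and at 6 h 9 were higher and 3 lower with DMSO, and 7 higher and 3 lower with SFN. Of all genes, 23.9% and 22.0% were higher and lower with DMSO, and 24.7% and 22.9% with SFN. Hinfp, an activator of H4 genes (1.37 ± 0.12, adjusted p = 4.02e-07 with DMSO), and Pou2f1, which encodes Oct1 (1.32 ± 0.23, adjusted p = 3.55e-04), were among the higher, and Lsm10, a subunit of the U7 snRNP, was lower (-2.43 ± 0.25, adjusted p = 2.50e-06). In isosmotic Nrf2-/- cells 2 of the 19 were higher and 2 lower, smaller shares than the 15.7% and 18.4% of all genes. Besides Slbp these were Exosc10, a subunit of the RNA exosome (-0.37), Cstf2, a subunit of the cleavage factor (0.98 ± 0.16, adjusted p = 2.56e-04), and Pou2f1 (0.77 ± 0.23, adjusted p = 0.0176). The list's median was 0.29 at 6 h with DMSO and -0.10 in isosmotic Nrf2-/- cells, beside 0.05 and a value near 0 for all genes.

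**Figure D5:**
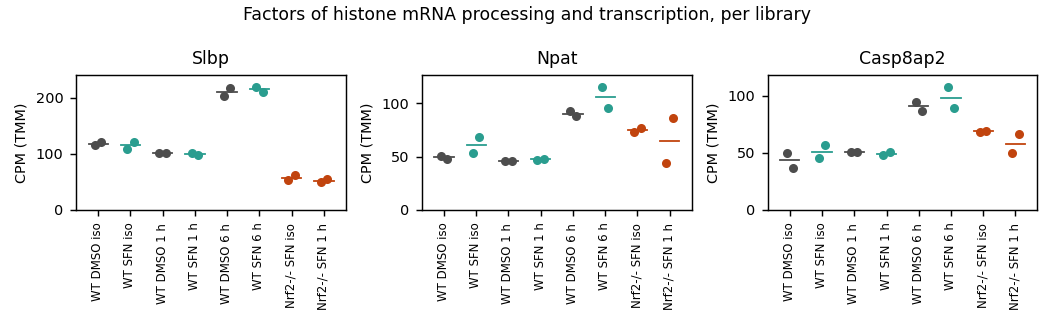
Level in CPM of Slbp, Npat and Casp8ap2, with 1 point per library and a line at the mean of each group. All 3 were higher at 6 h than in isosmotic WT cells, and Slbp was lower in the 4 Nrf2-/- libraries (49.8 to 61.8 CPM) than in all WT libraries.

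Of 30 S phase genes, all tested, 8 were higher and 7 lower at 6 h with DMSO (median -0.03) and 9 higher and 7 lower with SFN (median 0.06), shares near the background of all genes given above. Cdc6, which loads the replicative helicase, was higher (1.56 ± 0.08, adjusted p = 3.83e-09), as was Pcna, the sliding clamp (0.96 ± 0.14, adjusted p = 6.55e-05), while thymidine kinase Tk1 was lower (-0.92 ± 0.18, adjusted p = 8.09e-04). Of 13 genes of G2 and mitosis 0 were higher and 9 lower with DMSO and 11 lower with SFN, among them cyclin B1, Ccnb1 (-1.25 ± 0.09, adjusted p = 1.04e-07). In isosmotic Nrf2-/- cells, 2 S phase genes were higher and 13 lower of 30 (median -0.30), and 6 of 13 genes of G2 and mitosis were lower (median -0.24), with 15.7% of all genes higher and 18.4% lower. Among the S phase genes the polymerase subunit gene Pola1 was higher (1.29 ± 0.19, adjusted p = 8.33e-05) and thymidylate synthase Tyms lower (-0.80 ± 0.14, adjusted p = 3.67e-04). After 1 h of stress the counts were 2 higher and 9 lower of 30 and 0 higher and 6 lower of 13. Of all genes, 15.3% were higher and 16.2% lower in that comparison.

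Of 17 histone chaperone genes, 4 were higher and 3 lower at 6 h with DMSO and 6 higher and 3 lower in isosmotic Nrf2-/- cells. The shares at 6 h were near those of all genes (23.9% higher, 22.0% lower), as was the lower share in Nrf2-/- cells (18.4% of all genes lower). The higher share in Nrf2-/- cells, 6 of 17, was above the 15.7% of all genes, and the list was not tested as a set. Nap1l1, a carrier of H2A and H2B, was higher at 6 h (0.55 ± 0.09, adjusted p = 1.97e-04), and Asf1b, a carrier of H3 and H4, was lower (-0.55 ± 0.16, adjusted p = 0.0101). In isosmotic Nrf2-/- cells Atrx, which with Daxx places H3.3 (1.16 ± 0.18, adjusted p = 1.79e-04), and Rbbp7, a subunit of several histone-binding complexes (1.11 ± 0.09, adjusted p = 1.41e-07), were higher.

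Replication-independent variants, 10 genes that include H1f10, had 1 member higher and 4 lower at 6 h with DMSO, and 1 higher and 6 lower in isosmotic Nrf2-/- cells. Of all genes 23.9% were higher and 22.0% lower at 6 h, and 15.7% and 18.4% in Nrf2-/- cells. At 6 h macroH2A.2, Macroh2a2, was lower (-1.47 ± 0.13, adjusted p = 4.61e-07) and the H3.3 genes went apart, H3f3b lower (-0.82 ± 0.10, adjusted p = 1.48e-05) and H3f3a higher (0.39 ± 0.12, adjusted p = 0.0147). In isosmotic Nrf2-/- cells H2ax, the H2A form phosphorylated at DNA breaks, lay at 24.4 and 24.8 CPM against 58.2 and 58.8 CPM in WT cells (-1.25 ± 0.10, adjusted p = 3.22e-07).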

How the data were processed

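RNA of 16 mIMCD3 libraries was sequenced in 8 groups of 2. The authors deposited raw counts per gene symbol, 1 table per library, on mm10. The study's methods name Hisat2, while the submitters' processing notes list Bowtie2, SAMtools and featureCounts without versions. The annotation release, strand setting and treatment of reads that match several genes are not given in the sources used here. Groups came from the labels. The members and gene lists were chosen with earlier results of these data known, and named genes are the 10 members with the highest mean CPM, per comparison up to 10 called members with the largest fold change, the highest member of a family, Npat, Slbp, Casp8ap2, Nfe2l2, and per list up to 4 called genes with the largest fold change. Genes outside this rule are named as chosen after their values were seen.

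From the deposited counts, genes were filtered with filterByExpr (minimum count 10), scaled by TMM, and all 16 libraries were fitted together with edgeR 4.0.16 (robust quasi-likelihood test, Benjamini-Hochberg adjustment over 19509 genes, threshold 0.05) in R 4.3.3. The fit was tested on simulated data, in which only genes with a mean above 1 CPM were given a change. Detection at the lower levels of most members was not simulated. CPM used the TMM-scaled totals. Replicates with the same number did not deviate together (correlations -0.0794 to 0.123 over 28 pairs of groups), so no block was used. Alternatives were relative log expression size factors, no filter, DESeq2 1.42.0, fewer libraries, a replicate block and each library left out. Libraries held 34484296 to 50774875 counts, and limits from 3 counts cover counting error only. Of counts from 1 to 10, 58.0% to 68.5% were even numbers, and how read pairs were counted is not given in the sources used here.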

Additional observations from a re-analysis of the deposited data

How the results depend on the processing

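The 34 calls gave 753 values under the alternatives, of which 674 kept direction and call, 79 kept direction but lost the call and 0 reversed, and 18 calls were made in every alternative. Counts of called histone genes moved to 1 for SFN in isosmotic cells with the 12 WT libraries alone (H2bc21), to 1 for SFN at 1 h with only the libraries compared (H1f2), to 2 for 1 h of stress with DMSO with only the libraries compared, with the 12 WT libraries or without both stressed Nrf2-/- libraries (a setting chosen after seeing the data), to 4 for Nrf2-/- against WT at 1 h with only the libraries compared, and to 1 for the 1 h response of Nrf2-/- cells without the filter (H2bc3). Counts that stayed within 1.5 times still held other genes: at 6 h with SFN, 9 were called with only the libraries compared (H3c7, H4c9 and Hist1h4n added), 8 with the 12 WT libraries (H3c7 and H4c9 added) and 8 with DESeq2 (Hist1h4m and Hist1h4n added), and at 6 h with DMSO DESeq2 added H1f8. The median at 6 h with SFN was 0.54 with only the libraries compared. With relative log expression size factors the cluster sums were 68.5 and 73.8 CPM at 1 h and 83.2 and 90.6 CPM at 6 h, with DMSO and SFN. The causes were not tested.

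Leaving out each library in turn gave 0 to 2 called genes for 1 h of stress with DMSO, 2 to 6 for 6 h against 1 h, 3 to 9 for 6 h with SFN, 0 to 4 for the 1 h response of Nrf2-/- cells and 0 to 3 for its difference from WT. Medians ranged from -0.15 to 0.054 for SFN in isosmotic cells, -0.11 to 0.078 at 1 h and -0.016 to 0.13 at 6 h. They ranged from -0.16 to 0.48 for 6 h of stress with DMSO, 0.078 to 0.46 for 6 h against 1 h, -0.33 to -0.018 for 1 h with SFN and 0.084 to 0.63 for 6 h with SFN. For Nrf2-/- against WT they were -0.66 to -0.34 in isosmotic cells and -0.27 to 0.30 at 1 h, and for the 1 h response of Nrf2-/- cells 0.058 to 0.32. For the differences between responses they were -0.31 to 0.23 (SFN, 1 h), 0.055 to 0.37 (SFN, 6 h) and -0.032 to 0.58 (Nrf2-/-, 1 h). With the replicate block, 8 genes were called for Nrf2-/- against WT in isosmotic cells (H1f0 lost) and 7 at 6 h with SFN (H3c7 added); the labels do not say that a number marks a shared culture or day.

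Of the 42 tested genes, 36 had a mean under 2 CPM, and the reason for their low counts was not tested.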
